A study of Mus musculus with 12 samples.

Results

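The genes described here are the receptors for interferons and the genes that interferons induce, measured in hematopoietic stem cells of mouse bone marrow. A list of 59 genes was matched by symbol to the deposited table, and 58 were found among its 20457 genes. The other gene, Ifi27, has its identifier in the table under the symbol Ifi27l1 and stayed out of every count. All 58 members passed a filter on low values that asked for 10 on the linear scale in at least 3 of the 12 libraries, which 14803 genes passed.

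The study asked how stem cells with and without surface IL27RA, the receptor chain for interleukin-27, differ with age. All mice were C57BL/6, aged 2 months (young) or 28 months (old), with no treatment named in the labels. Cells were sorted as IL27RA- or IL27RA+, which gave 4 groups, each of 3 libraries of 50 cells amplified with Smart-Seq2, which copies whole transcripts and adds no molecular identifiers. No label ties the libraries of a group to separate mice. The p-values therefore rest on the spread from library to library alone, part or all of which can be technical. For old IL27RA- replicate 1 the labels disagree: the source field reads young, the title and the age (28 months) read old, and it was analysed as old. The gates used to sort the stem cells were not analysed here.

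Interferons are secreted proteins that warn cells of infection. Type I interferons bind the receptor chains encoded by Ifnar1 and Ifnar2, interferon gamma binds those of Ifngr1 and Ifngr2, and kinases of the JAK family then phosphorylate STAT factors. A complex of STAT factors and IRF9 binds a promoter element called the interferon-stimulated response element (ISRE), while pairs of STAT factors bind the gamma-activated site (GAS). The induced genes encode proteins that sense foreign RNA, block virus entry or attack pathogens inside the cell, and in the marrow interferons are known to bring resting stem cells into division.

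Part of the members carry such elements in their promoters. RefSeq starts (GRCm38.p6) were listed for 46 of the 58 members, all but Usp18, Ly6e, Dhx58, Zbp1, Oas2, Parp9, Parp14, Mx1, Mx2, Iigp1, Rtp4 and Tor3a. The 250 bases before each start were searched on both strands for GAAANNGAAA, a plain form of the ISRE made of 2 half-sites with 2 bases between them. It was found in 13 of 46 members (28.3%) and in 3.46% of all 27025 genes with a start. The GAS, searched as TTCNNNGAA, which reads the same on both strands, was found in 10 of 46 members (21.7%) and in 8.13% of all genes. Both motifs were found in 4 members (Bst2, Igtp, Irf2 and Irgm2), and in 1 of them, Bst2, the matches share bases. A match describes the letters only. ISRE matches stood in 5 of 6 GTPases (Gbp2, Gbp3, Igtp, Irgm1 and Irgm2), 3 of 5 members of the IFIT and ISG15 system (Ifit1, Ifit3 and Isg15), 2 of 6 membrane and secreted proteins (Bst2 and Ifitm2), 2 of 11 sensors and nucleic acid enzymes (Oas3 and Rsad2) and 1 of 4 factors (Irf2). None of the 4 receptors, of the 6 PARP, TRIM and other ubiquitin-linked members or of the 4 other induced genes with a start held one. The sequences of 4 immunity-related GTPases, the family of Ifi47, the member with the smallest p for age, are printed with that of Isg15, the ubiquitin-like modifier, because they show the element alone, repeated and absent. They read 5′ to 3′ on the gene's strand, end at the base before the start, and have ISRE matches in capitals. They lie at chr11:49076337-49076586 (Ifi47, plus strand), chr11:58199306-58199555 (Igtp, plus), chr11:58214727-58214976 (Irgm2, plus), chr11:48871421-48871670 (Irgm1, minus) and chr4:156200819-156201068 (Isg15, minus).
Ifi47: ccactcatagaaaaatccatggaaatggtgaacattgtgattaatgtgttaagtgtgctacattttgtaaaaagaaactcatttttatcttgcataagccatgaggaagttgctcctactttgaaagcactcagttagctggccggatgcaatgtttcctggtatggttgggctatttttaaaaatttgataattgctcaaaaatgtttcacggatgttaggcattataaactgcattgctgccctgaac
Igtp: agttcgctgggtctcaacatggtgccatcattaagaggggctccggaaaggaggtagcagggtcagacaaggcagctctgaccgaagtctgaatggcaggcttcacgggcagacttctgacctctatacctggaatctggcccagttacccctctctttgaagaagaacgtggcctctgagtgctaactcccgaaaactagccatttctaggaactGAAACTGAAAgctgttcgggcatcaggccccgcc
Irgm2: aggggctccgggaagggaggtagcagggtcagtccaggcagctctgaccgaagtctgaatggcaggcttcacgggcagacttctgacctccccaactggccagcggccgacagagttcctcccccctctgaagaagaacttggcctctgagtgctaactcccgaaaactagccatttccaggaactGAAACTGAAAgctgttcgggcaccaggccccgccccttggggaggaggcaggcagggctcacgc
Irgm1: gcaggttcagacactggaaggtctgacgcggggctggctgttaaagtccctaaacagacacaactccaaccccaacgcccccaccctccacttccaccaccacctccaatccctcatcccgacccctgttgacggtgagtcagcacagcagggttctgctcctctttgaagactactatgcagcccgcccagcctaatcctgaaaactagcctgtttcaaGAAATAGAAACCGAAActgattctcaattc
Isg15: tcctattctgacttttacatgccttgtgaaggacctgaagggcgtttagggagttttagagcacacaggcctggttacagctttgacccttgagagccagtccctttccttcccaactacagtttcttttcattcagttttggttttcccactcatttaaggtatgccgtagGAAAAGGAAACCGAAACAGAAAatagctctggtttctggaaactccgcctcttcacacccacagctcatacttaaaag
Igtp and Irgm2 each hold 1 match, which begins 34 and 64 bases before the start, and the longest identical run of letters in the windows of these related genes is 55 bases. Irgm1 holds 2 overlapping matches that begin 30 and 24 bases before the start, and Isg15 holds 3 that begin 78 to 66 bases before it. The Ifi47 window holds neither motif as spelled here.

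Libraries held 11669083 to 24153167 reads in genes, and normalized counts, the unit of the levels below, are reads divided by the library's size factor. A floor of 3 reads equals 1.93 to 3.77 normalized counts, and this floor covers counting error only, since amplified reads are not independent molecules. The 95% intervals below are from limma and rest on the spread between libraries. The summed level of 9 stem cell markers (9 of 9 in the table, Kit among them) was 38885 to 41203 in old IL27RA- libraries. In the other groups it was 27573 to 34755, with no overlap. Of the 9 markers only Procr separated these groups, at 11868 to 15274 in old IL27RA- and 4654 to 9582 in the other libraries. Kit overlapped, at 5791 to 9751 and 6278 to 10208. The transcript of the sorted receptor, Il27ra, ranged from 711 to 1632 in IL27RA- and from 887 to 1498 in IL27RA+ libraries, which overlap. Summed macrophage markers (13 of 14 in the table) were at 1226 to 2357 in IL27RA- and 2055 to 9894 in IL27RA+ libraries, with C1qa at 0 to 87.6 and 124 to 1589. Summed T and NK cell markers (4 of 8 in the table) were at 68.2 to 537 in young and 791 to 2928 in old libraries. Klrb1c made up most of every old sum, at 15.0 to 445 in young and 583 to 2922 in old libraries. The ages overlapped for Cd4 (0 to 187 in young, 0 to 345 in old) and Nkg7 (0 to 103 and 6.28 to 120). Trbc2 was at 0 in every library but old IL27RA+ replicate 1, at 1.85. Summed B and plasma cell markers (5 of 10 in the table) were at 1810 to 9311 in 11 libraries and 318999 in old IL27RA- replicate 1, where Igkc alone was at 312300. Summed markers of plasmacytoid dendritic cells (5 of 7, with the member Bst2 among them), of monocytes and neutrophils (7 of 8, nearly all of it Lyz2) and of erythroid cells (5 of 6) were at 3874 to 8098, 10063 to 16394 and 148 to 4893 over the 12 libraries. By sort, averaged over the ages, all 5 monocyte and neutrophil genes past the filter had positive differences (median 2.97), against 54.2% of all genes. So did all 5 erythroid genes past it (median 2.15), and none of either list was called (0.189% of all genes were). S100a9 was at 0 to 40.6 in IL27RA- and 41.0 to 158 in IL27RA+ libraries, while the fractions overlapped for the other genes of that list. Summed cell cycle genes (12 of 12) were at 5992 to 10489 in young IL27RA-, 4955 to 14410 in young IL27RA+, 1910 to 3901 in old IL27RA- and 13174 to 18545 in old IL27RA+ libraries, so the fractions overlap in young cells and not in old ones. The T and NK cell sums, through Klrb1c, separate the ages, and the cell cycle sums separate the fractions in old cells. The stem cell sums, through Procr, separate old IL27RA- from the other groups. The part of these markers and of the macrophage and Igkc reads in the members' differences was not tested. In bulk libraries, fewer cells expressing a gene and less RNA per cell cannot be told apart.

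The members were measured well for the most part. Of the 58, 52 were at 10 or more normalized counts in all 12 libraries, and 4 (Ifit3, Oasl1, Mx1 and Mx2) had a library under 3 reads. Isg15, one of the best known interferon targets, was among the lowest, at 2.89 to 26.1 over the 12 libraries. The spread within groups, as the median over the groups of the SD in percent of the mean, ran from 10.2% for Ifi47 and 10.6% for Ly6e to 152% for Ifit3.

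**Figure D1:**
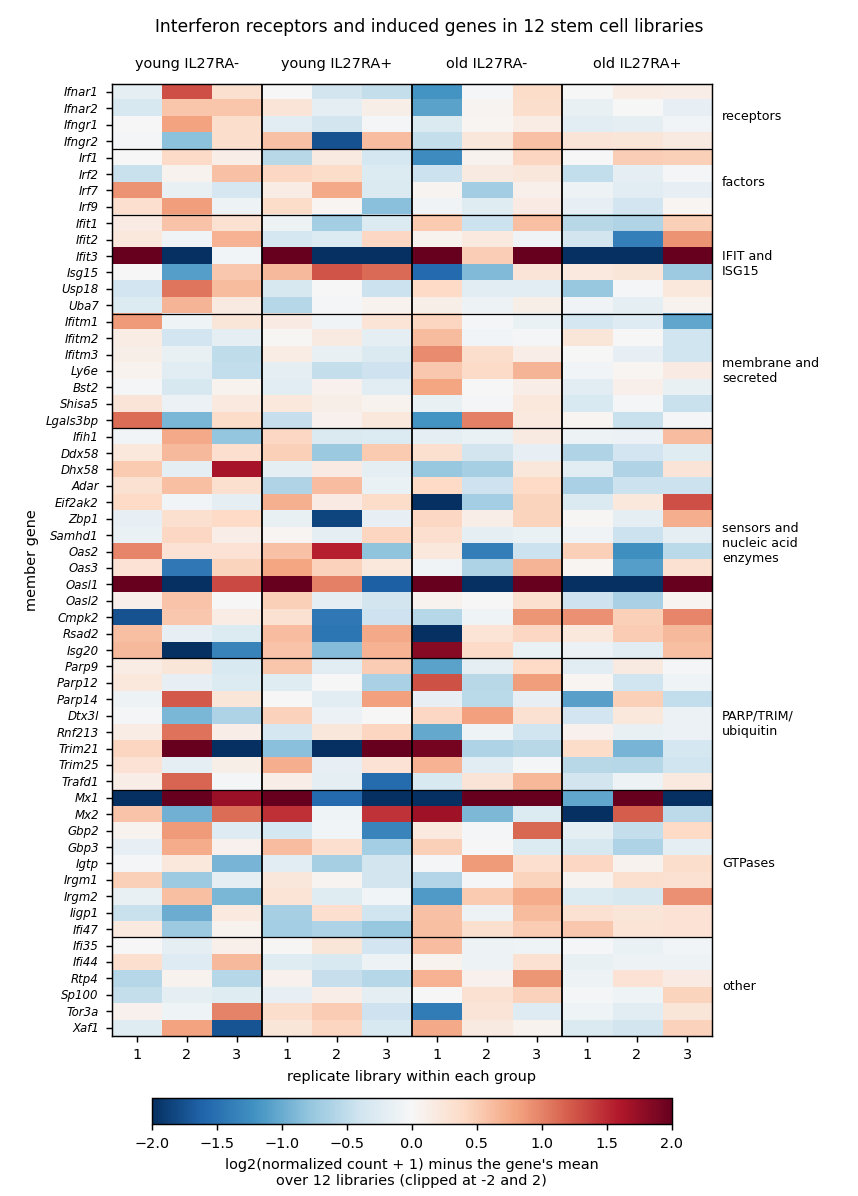
Level of the 58 members in each of the 12 libraries, as log2(normalized count + 1) minus the gene's mean over the libraries (colour, clipped at -2 and 2), with genes in blocks by role and libraries in 4 groups of 3. Most rows show no block of colour that follows the groups, Ifi47 is red in the 6 old libraries, and Ifit3, Oasl1, Mx1 and Trim21 swing between libraries of a group.

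Between old and young cells, averaged over the fractions, 2 of the 58 members changed and both rose with age: Ifi47, an immunity-related GTPase that acts at vacuoles holding pathogens, and Ly6e, a lipid-anchored surface protein. Over all 14803 genes tested, 1.85% were called in this comparison (limma, adjusted p under 0.05). Of the members, 26 of 58 (44.8%) had a positive difference, against 54.1% of all genes, and their median log2 difference was -0.05, against 0.06. At an unadjusted p under 0.05, 6 members were higher in old cells (8.55% of all genes were) and 2 were lower (6.55% of all genes were).

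Ifi47 had normalized counts of 7763, 4104 and 7173 in young IL27RA-, 4259.9, 4424 and 4009 in young IL27RA+, 10272, 8482 and 9726 in old IL27RA- and 9895, 8188 and 8332 in old IL27RA+ libraries. Every old library lay above every young one, and Ifi47 was the only 1 of the 58 members for which that held, as it did for 1.39% of all genes tested. No member had all 6 old libraries below the young ones (0.669% of all genes did). Group means were 6347 ± 1965 (SD, n = 3), 4231 ± 209, 9493 ± 917 and 8805 ± 947 in the same order. The log2 difference was 0.84 ± 0.16 (SE; 95% interval 0.50 to 1.18; limma adjusted p = 0.0147). It was 0.63 ± 0.23 within IL27RA- (adjusted p = 0.265) and 1.05 ± 0.23 within IL27RA+ (adjusted p = 0.0631), and the difference between these values did not pass its own test (0.42 ± 0.32, adjusted p = 0.942). The call was kept in all 20 alternatives, with adjusted p from 0.00779 to 0.0480 and differences from 0.67 to 0.93. Without old IL27RA- replicate 1, the library with the Igkc reads, the difference was 0.81 (adjusted p = 0.0348). Ifi47 shares exon sequence on the same strand with the olfactory receptor gene Olfr56, which was at 0 to 14.2 normalized counts, and with a pseudogene on the opposite strand.

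Ly6e, which alters how some viruses enter a cell, had 10383, 8486 and 7013 in young IL27RA-, 8691, 7081 and 7388 in young IL27RA+, 14297, 12862 and 15782 in old IL27RA- and 9501, 10171 and 11130.0 in old IL27RA+ libraries. Old IL27RA- libraries were the highest 3 of the 12, while the lowest old IL27RA+ library lay below the highest young one, so the ages overlap. The log2 difference was 0.58 ± 0.13 (95% interval 0.29 to 0.86; adjusted p = 0.0391), with 0.74 ± 0.19 within IL27RA- (adjusted p = 0.103) and 0.41 ± 0.19 within IL27RA+ (adjusted p = 0.547). This call stood near the threshold: it was kept in 7 of 20 alternatives, over which adjusted p ran from 0.0174 to 0.102. It was lost on leaving out any 1 library (adjusted p = 0.0661 to 0.102) other than young IL27RA- replicate 1 (0.0174) or young IL27RA+ replicate 1 (0.0398), while the difference stayed between 0.51 and 0.65.

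**Figure D2:**
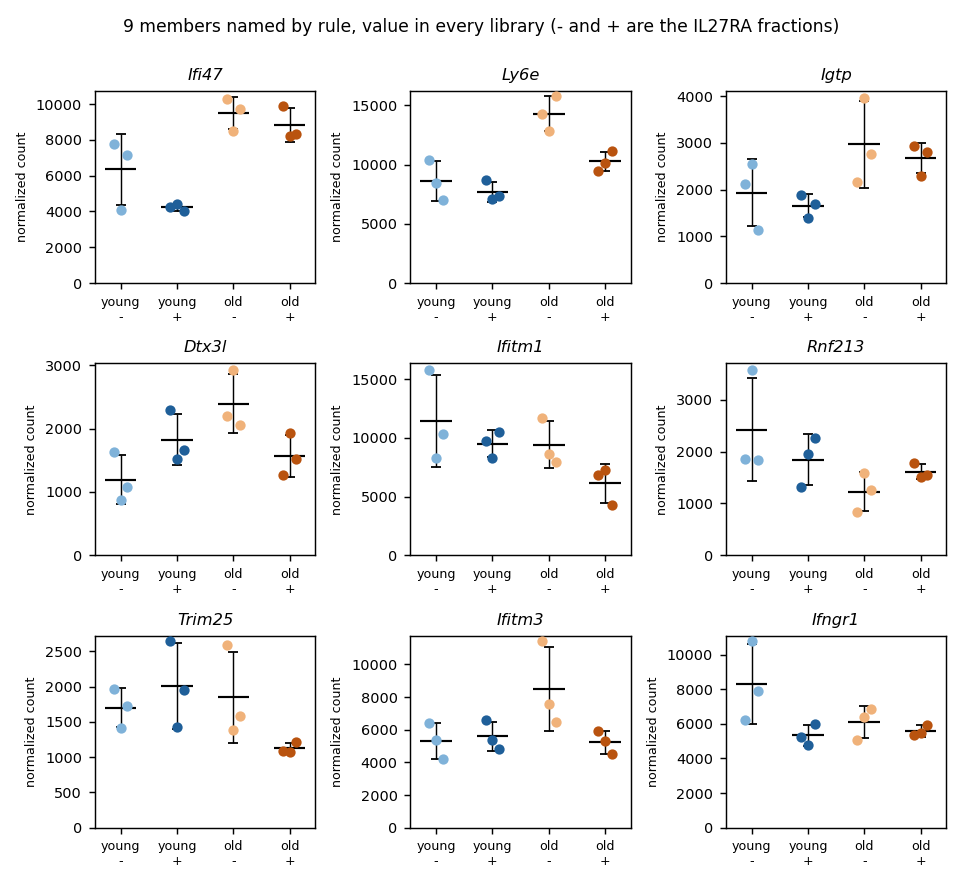
Normalized count of 9 members named by rule in every library (points), with the group mean (long bar) and SD (whiskers, n = 3). For Ifi47 the 6 old libraries, from 8188 up, stand above the 6 young ones, up to 7763, and for the other 8 genes the ages overlap.

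Within IL27RA- cells, limma called no member for age (0.669% of all genes were called), and limma voom on the recovered reads also called none. At an unadjusted p under 0.05, 7 members were higher in old cells (6.68% of all genes) and 2 were lower (5.8%), the members' median was -0.09 and that of all genes 0.04. Within IL27RA+ cells limma again called none (0.426% of all genes), as did voom, with 4 members higher (5.39%) and 2 lower (3.49%) at an unadjusted p under 0.05 and a median of -0.03 against 0.05. In both fractions alike, 16 members had a positive and 23 a negative age difference, and 19 differed in sign, with no count over all genes beside them. Leaving out young IL27RA- replicate 1 gave 2 calls within IL27RA-, Ly6e (0.89, adjusted p = 0.0361) and Dtx3l (1.28, adjusted p = 0.0448). Leaving out young IL27RA- replicate 2 gave 1 within IL27RA+, Ifi47 (1.05, adjusted p = 0.0129), since the fits share 1 estimate of the spread.

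Between IL27RA+ and IL27RA- cells, averaged over the ages, limma called no member (0.189% of all genes were called) and voom none. At an unadjusted p under 0.05, 0 members were higher in IL27RA+ cells (4.92% of all genes were) and 5 were lower (3.06%): Ifngr1, Ifitm1, Ly6e, Adar and Gbp2, the last 2 outside the naming rule and named after their values were seen. Of the 58, 20 had a positive difference (34.5%, against 54.2% of all genes), and the median was -0.19, against 0.05 over all genes. No member had its 6 IL27RA+ libraries all above or all below its 6 IL27RA- ones, as 0.426% of all genes did. The smallest adjusted p among the members was 0.568, for Ifngr1.

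In young cells alone limma called no member for the sort (0.0203% of all genes), nor did voom. There, 1 member, Dtx3l, was higher (4.57% of all genes) and 3 were lower (3.65%) in IL27RA+ cells at an unadjusted p under 0.05, with a median of -0.15 against 0.04 over all genes. In old cells alone neither tool called a member (0.0203% of all genes for limma), and 0 were higher (3.72%) and 4 lower (1.66%) at that unadjusted p: Ifitm3, Ly6e, Ifitm1 and Trim25. Of the 58, 17 (29.3%, against 51.9% of all genes) had a positive difference in old cells, and the median was -0.22, against 0.02 over all genes. At both ages 27 members were lower in IL27RA+ cells by sign and 6 were higher, and 25 differed in sign. The shares over all genes were not counted for these signs. The median over the members stayed negative in every alternative tried for these 3 comparisons, from -0.28 to -0.06.

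**Figure D3:**
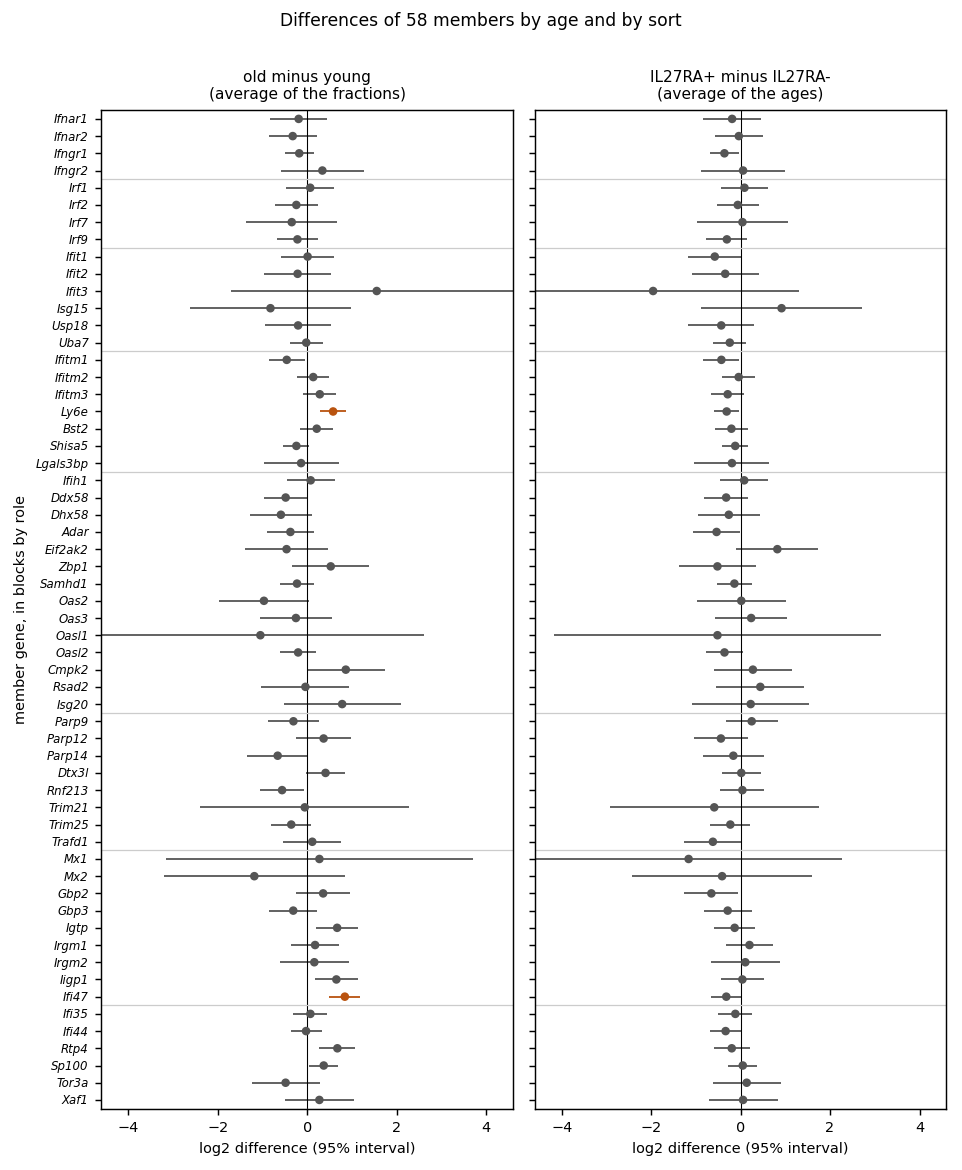
Log2 difference of each of the 58 members (points) with its 95% interval (lines, clipped at the edge of the axis for Ifit3 and Oasl1), old minus young at left and IL27RA+ minus IL27RA- at right, each averaged over the other factor. Ifi47 at 0.84 and Ly6e at 0.58 are the members past the threshold (orange), and 20 of the 58 points at right lie right of 0.

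The difference of the age differences between the fractions called no member and no gene at all by limma (0% of all genes), nor any member by voom. At an unadjusted p under 0.05, 0 members had a more positive age difference in IL27RA+ cells (2.98% of all genes) and 2 a more negative one (2.22%), Dtx3l and Ifitm3. The precision bounds what could be seen: the median SE over the members was 0.26 for a comparison averaged over 12 libraries, 0.37 between 2 groups and 0.52 for the difference of differences.

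The 4 receptor chains were all measured in every library and none was called in any comparison. Ifngr1, the ligand-binding chain for interferon gamma, had 6242, 10799 and 7908 in young IL27RA-, 5262, 4787 and 5989 in young IL27RA+, 5056, 6367 and 6874 in old IL27RA- and 5338, 5452 and 5955 in old IL27RA+ libraries. The 3 young IL27RA- libraries lay above the 3 young IL27RA+ ones, and the old fractions overlapped. The difference IL27RA+ minus IL27RA- was -0.61 ± 0.22 in young cells (adjusted p = 0.464), -0.12 ± 0.22 in old cells and -0.36 ± 0.15 on average. Ifngr2, its partner chain, had 325, 188 and 423, 501, 98.9 and 512, 239, 387 and 499 and 396, 393 and 377 in the same order of groups. Its old IL27RA+ libraries lay within a narrow band inside the range of the young ones.

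Ifnar1, a chain of the type I receptor, had 787, 2174 and 1119.9 in young IL27RA-, 890.1, 692 and 638 in young IL27RA+, 391, 875 and 1150.3 in old IL27RA- and 893, 992 and 977 in old IL27RA+ libraries. Young IL27RA- replicate 2 was the highest and old IL27RA- replicate 1 the lowest of the 12. Its age difference was -0.19 ± 0.30 (95% interval -0.83 to 0.45). Ifnar2, the other chain, had 1169, 2140.4 and 2149.7, 1739, 1291 and 1579, 694, 1510.1 and 1874 and 1314, 1465 and 1309, again lowest in old IL27RA- replicate 1. Its age difference was -0.32 ± 0.25 (95% interval -0.86 to 0.21), so both intervals include 0.

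Of the 4 interferon regulatory factors, 1 had a positive age difference and none was called. Irf1, a factor that interferon gamma induces, had 3608, 4697 and 3962 in young IL27RA-, 2446, 4105 and 2832 in young IL27RA+, 1499, 3770.5 and 4847 in old IL27RA- and 3632, 5089 and 4993 in old IL27RA+ libraries. Old IL27RA- replicate 1 was the lowest of the 12, and the other old libraries lay in the range of the young ones or just above. The difference IL27RA+ minus IL27RA- was 0.58 ± 0.35 in old cells (adjusted p = 1) and -0.41 ± 0.35 in young cells, and the age difference was 0.07 ± 0.25. Irf7, which turns on the type I interferon genes themselves, was the lowest by age at -0.35 ± 0.48, with levels of 84.1 to 255. Irf9, the DNA-binding partner of STAT factors, was the lowest by sort at -0.31 ± 0.21, and Irf2, which competes with IRF1 for its sites, ranged from 1062 to 2230.2.

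In the IFIT and ISG15 system, whose IFIT proteins bind foreign RNA and whose ISG15 is joined to other proteins, 2 of 6 members had a positive age difference and 1 a positive sort difference. Isg15 had 10.3, 4.29 and 15.4 in young IL27RA-, 16.9, 26.1 and 23.8 in young IL27RA+, 2.89, 5.19 and 12.6 in old IL27RA- and 12, 12.5 and 5.86 in old IL27RA+ libraries. All 3 young IL27RA+ libraries lay above the other 9. The difference IL27RA+ minus IL27RA- was 0.92 ± 0.84 on average (95% interval -0.88 to 2.71; adjusted p = 0.864), and the lowest library, old IL27RA- replicate 1, was at the 3-read floor of 2.89. Ifit3 gave the extremes of this group, 1.55 ± 1.53 by age and -1.96 ± 1.53 by sort, with SEs that reflect levels of 0 to 164 over the libraries. Ifit3 has a near copy, Ifit3b, with no entry under that symbol in the deposited table. How reads matching both were counted is not stated. The ISG15 enzymes were steadier: Uba7, which activates ISG15, was at 5004 to 11906 and Usp18, which removes it, at 208 to 739.

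Among the membrane and secreted proteins, 4 of 7 members had a positive age difference, Ly6e past the threshold, and 0 of 7 a positive sort difference. Ifitm1, one of a family that keeps virus membranes from fusing with the cell, had 15777, 8252 and 10319 in young IL27RA-, 9736, 8283 and 10500.3 in young IL27RA+, 11687, 8590.2 and 7978 in old IL27RA- and 6849, 7284 and 4249 in old IL27RA+ libraries. Old IL27RA+ libraries held the 3 lowest values. Its difference was -0.46 ± 0.19 by age (adjusted p = 0.267) and -0.43 ± 0.19 by sort (adjusted p = 0.59).

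Ifitm3 had 6409, 5344 and 4180.4 in young IL27RA-, 6575, 5370.2 and 4841 in young IL27RA+, 11412, 7568 and 6483 in old IL27RA- and 5898, 5321 and 4489 in old IL27RA+ libraries. Old IL27RA- replicate 1, the library with the Igkc reads, was the highest. In old cells the sort difference was -0.66 ± 0.24 (adjusted p = 0.677) and was -0.43 without that library. The same library was the highest for Bst2, a protein that tethers virus particles to the cell, at 3817 against 1767 to 2422 in the others. The Ifitm genes resemble each other, so reads may be split among them. Of the same role, Lgals3bp, a secreted glycoprotein, was at 295 to 1467 and Shisa5, an endoplasmic reticulum membrane protein, at 4105 to 6654.

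The 14 sensors and nucleic acid enzymes held no call, with 4 positive by age and 7 by sort. Eif2ak2, a kinase that halts translation on binding double-stranded RNA, had 595, 434 and 395 in young IL27RA-, 744, 510.2 and 584 in young IL27RA+, 87.6, 283 and 614 in old IL27RA- and 371, 524 and 1107 in old IL27RA+ libraries. Old IL27RA- replicate 1 was the lowest and old IL27RA+ replicate 3 the highest. The sort difference in old cells was 1.27 ± 0.61 (adjusted p = 0.934) and was 0.52 without old IL27RA- replicate 1. On average over the ages it was 0.82 ± 0.43, and 0.45 without that library.

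Dhx58, a helicase that tunes the RNA sensors Ifih1 and Ddx58, had 913, 559.6 and 1974 in young IL27RA-, 554, 708 and 549 in young IL27RA+, 373, 399 and 738 in old IL27RA- and 541, 418 and 757 in old IL27RA+ libraries. Young IL27RA- replicate 3 was by far the highest. The age difference within IL27RA- was -1.07 ± 0.46 (adjusted p = 0.354). Oas3, an enzyme whose product activates the RNA-cutting RNase L, had 743, 226 and 828, 1052, 839.7 and 709.8, 582, 397 and 982 and 629, 283 and 757 in the same order of groups. Its young IL27RA+ libraries were within the range of the rest but for replicate 1, the highest of the 12, and its young sort difference was 0.72 ± 0.53 (adjusted p = 0.753).

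The extremes of this role by age were Cmpk2, a mitochondrial nucleotide kinase, at 0.86 ± 0.41 (adjusted p = 0.341) and Oasl1, an OAS-like protein, at -1.05 ± 1.71, the latter with libraries from 0 to 288. Adar, which edits adenosine in RNA, was the lowest by sort at -0.54 ± 0.25 (adjusted p = 0.616). Rsad2, which makes a chain-ending nucleotide, was at 184 to 1417, and Samhd1, which breaks down the building blocks of DNA, at 1422 to 2588.

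In the PARP, TRIM and other ubiquitin-linked group, 3 of 8 members were positive by age, 3 by sort, and none was called. Dtx3l, a ubiquitin ligase that works with PARP9, had 1630.2, 877 and 1079 in young IL27RA-, 2289.8, 1527 and 1660.4 in young IL27RA+, 2204, 2926 and 2053 in old IL27RA- and 1269, 1925 and 1526 in old IL27RA+ libraries. In the IL27RA- fraction all old libraries lay above all young ones, and in the IL27RA+ fraction the ages overlapped. The age difference was 1.03 ± 0.29 within IL27RA- (adjusted p = 0.142) and -0.21 ± 0.29 within IL27RA+. The difference between them, -1.25 ± 0.41, had the smallest p of the members in that comparison, 0.00843 unadjusted and 0.872 adjusted. Dtx3l and Parp9 overlap on opposite strands, and no source used here says whether counting used the strand.

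Rnf213, a very large ubiquitin ligase, had 1862, 3564 and 1843 in young IL27RA-, 1310.3, 1961 and 2259.8 in young IL27RA+, 827, 1585 and 1268 in old IL27RA- and 1774, 1508 and 1542 in old IL27RA+ libraries. Young IL27RA- replicate 2 was the highest and old IL27RA- replicate 1 the lowest. The age difference was -0.56 ± 0.23 on average (adjusted p = 0.264) and -0.27 without those 2 libraries.

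Trim25, the ligase that activates the sensor Ddx58, had 1965, 1408 and 1731 in young IL27RA-, 2644, 1425 and 1951 in young IL27RA+, 2587, 1381 and 1582 in old IL27RA- and 1085, 1073 and 1213 in old IL27RA+ libraries. The 3 old IL27RA+ libraries were the lowest of the 12 and lay close together. The age difference within IL27RA+ was -0.79 ± 0.30 (adjusted p = 0.427). The age extreme below was Parp14, an ADP-ribosyltransferase, at -0.66 ± 0.32, and the sort extremes were Parp9 at 0.25 ± 0.27 and Trafd1, a brake on these responses, at -0.62 ± 0.30.

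Of the 9 GTPases, 7 had a positive age difference (54.1% of all genes did), and Ifi47 alone passed the threshold. Their median of 0.27 is the value of Mx1, which has an SE of 1.60 and 5 libraries under 3 reads. Igtp, an immunity-related GTPase of the regulatory kind, had 2125, 2542 and 1146 in young IL27RA-, 1887, 1391 and 1701 in young IL27RA+, 2157, 3971 and 2771 in old IL27RA- and 2931, 2302 and 2795 in old IL27RA+ libraries. In the IL27RA+ fraction all old libraries lay above all young ones, and in the IL27RA- fraction the ages overlapped. Its age difference was 0.67 ± 0.22 (95% interval 0.21 to 1.13; adjusted p = 0.148), and 0.69 ± 0.31 within IL27RA+ (adjusted p = 0.531).

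The related Iigp1, which helps break the vacuoles of parasites, was named after its values were seen, with group means of 2499.6 ± 1031 (SD, n = 3) in young IL27RA-, 2779.6 ± 1048 in young IL27RA+, 4173 ± 1077 in old IL27RA- and 3812 ± 73.5 in old IL27RA+ libraries. Its age difference was 0.65 ± 0.23 (adjusted p = 0.183). The regulatory Irgm1 and Irgm2, whose promoters hold the ISRE letters as Igtp does, had age differences of 0.18 ± 0.25 and 0.16 ± 0.36, with intervals of -0.36 to 0.71 and -0.61 to 0.93. Igtp and Irgm2 share exon sequence on the same strand, so some reads cannot be told apart. Mx2, a dynamin-like antiviral GTPase, was the lowest by age at -1.18 ± 0.94, and Mx1 the lowest by sort at -1.16 ± 1.60, both with libraries under the 3-read floor. Gbp2, a guanylate-binding protein that coats pathogens, was at 825 to 4555, with a sort difference of -0.65 ± 0.28 (adjusted p = 0.585).

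Among the 6 other induced genes 4 were positive by age. Rtp4, known as a chaperone that brings receptors to the cell surface, had group means of 2815 ± 757 (SD, n = 3) in young IL27RA-, 2887 ± 734 in young IL27RA+, 5324 ± 1429 in old IL27RA- and 3851 ± 510.0 in old IL27RA+ libraries. Its age difference, 0.67 ± 0.19 (adjusted p = 0.0904), came nearest to the threshold of those not called. Sp100, a component of nuclear bodies, was at 0.37 ± 0.15 (adjusted p = 0.264) and was named after its values were seen. The lowest by age was Tor3a, an ATPase of the endoplasmic reticulum, at -0.48 ± 0.36, and the lowest by sort was Ifi44 at -0.34 ± 0.16.

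The libraries of a group differed in how often they held the highest value of a member. With 3 libraries a group, a library is the highest of its group for 30.5% to 37.1% of all genes tested. For the 58 members that share was 51.7% in old IL27RA- replicate 3, 50% in old IL27RA+ replicate 3 and 46.6% in young IL27RA+ replicate 1, and 12.1% in old IL27RA- replicate 2, while old IL27RA- replicate 1, at 36.2%, was close to the 37.1% of all genes there. These shares describe the libraries, since the members are not independent of each other.

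Single members did not share 1 order of the old libraries, and those given here were picked after their values were seen. Ifit1, which binds foreign RNA by its end, had 964, 502 and 1022 in old IL27RA- and 459, 444 and 942 in old IL27RA+ libraries. Replicates 1 and 3 of old IL27RA- and replicate 3 of old IL27RA+ stood above the other 3 old libraries.

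Oasl1 had 263, 0 and 165 and 2.77, 0 and 241, and Ifit3 had 164, 15.6 and 86.6 and 0.924, 0 and 145, in the same 2 groups. The same 3 libraries were again the highest of the old ones. Other members had another order. Mx1 had 0, 117 and 37.7 and 3.7, 64.2 and 0, and Rsad2 had 184, 1012 and 1121 and 969, 1199 and 1323. Old IL27RA- replicate 1 was the lowest of the old libraries for Rsad2, as it was for Isg15 and Eif2ak2 above, and Mx1 was at 0 there and in old IL27RA+ replicate 3. In young libraries Ifit1 lay between 419 and 1001. Old IL27RA- replicate 1 is the library whose labels disagree on age, and nothing was tested on these orders.

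**Figure D4:**
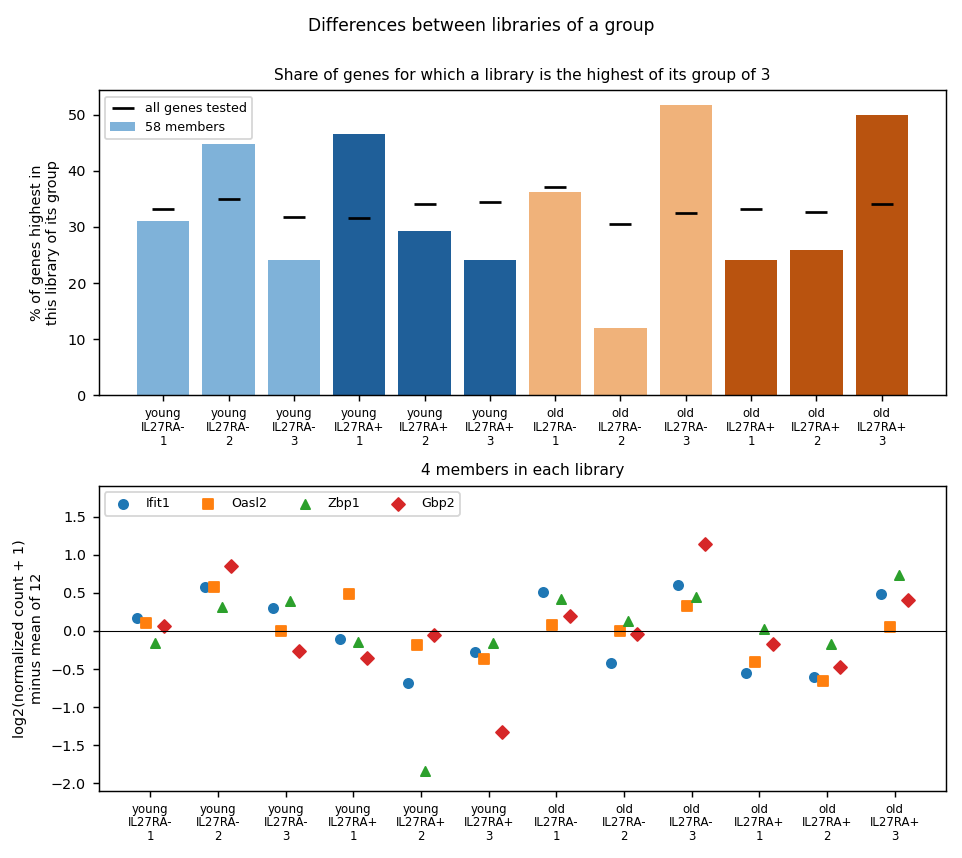
Top, percent of the 58 members for which a library is the highest of its group of 3 (bars), with the same share over all 14803 genes tested (black ticks). Bottom, log2(normalized count + 1) minus the mean over the 12 libraries for 4 members picked outside the naming rule (Ifit1, Oasl2, Zbp1 and Gbp2). Their points lie at or above 0 in old IL27RA- replicates 1 and 3 and old IL27RA+ replicate 3. In old IL27RA+ replicates 1 and 2 they lie below 0 but for Zbp1 in replicate 1, just above it. Members with another order, such as Rsad2 and Mx1, are not plotted.

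Other genes of the pathway, from a list of 46 of which 36 were in the table and 34 passed the filter, held 1 rise and 1 fall with age on average over the fractions, where 1.85% of all genes were called. Socs3, which feeds back to shut off cytokine receptors, had 213, 7.16 and 205 in young IL27RA-, 120, 60.2 and 285 in young IL27RA+, 1286, 1461 and 2861 in old IL27RA- and 578, 1640 and 772 in old IL27RA+ libraries. Every old library lay above every young one, and the log2 difference was 3.72 ± 0.71 (SE, adjusted p = 0.0152). Il10rb, a receptor chain shared by type III interferons and interleukin-10, fell by 0.96 (SE 0.21, adjusted p = 0.0328), from 894 to 1865 in young to 477 to 839 in old libraries. Stat2, the partner of IRF9 at the ISRE, was at -0.74 ± 0.23 (adjusted p = 0.121). Of the 34, 12 were positive by age (against 54.1% of all genes), with a median of -0.20, against 0.06. At an unadjusted limma p under 0.05, 2 of the 34 were higher in old cells (8.55% of all genes) and 6 were lower (6.55%). In the other 6 comparisons limma called none of the 34, and voom none, with 1 to 3 higher (2.98% to 6.68% of all genes) and 0 to 5 lower (1.66% to 5.8%) at an unadjusted p under 0.05. The interferons themselves were not analysed here.

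Set beside the promoters, the 13 members with ISRE letters had a median age difference of 0.13, with 8 positive, and the 33 with a start and without the letters had -0.14, with 13 positive. Ifi47, the member with the clearest age difference, was among the 33, and Ly6e was in neither group. By sort the medians were -0.06 and -0.19. These are descriptions of members chosen by their letters, with no test.

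Counting limits some of these genes. In the GENCODE M21 annotation, 23 of the 58 members share exon sequence with another gene. Among them are Ifi47, Igtp, Irgm2, Dtx3l, Parp9, Irf1, Irf7, Irf9, Rnf213, Rtp4 and Sp100. How reads on shared exons were counted is not stated, so these values may include reads of the neighbour or lack reads shared with it. Ly6e, Trim25, Ifngr1 and Ifitm3 share none.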

How the data were processed

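RNA of 12 libraries of 50 sorted stem cells was sequenced. The authors deposited 1 table of log2 values per gene and library. Their steps show log2(1 + reads / size factor): undoing this returned whole reads, to within 0.001 of a read, for 100% of values. Per the submitters' processing notes, DESeq2, HTSeq, TopHat2 2.1.1 and FastQC 0.11.5 were used, in steps that are not stated. Genome build and strand setting: not given in the sources used here. Of 20473 lines, 1 damaged line (Mtbp) and 15 repeats were left out, which left 20457 genes.

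The deposited log2 values of the 12 libraries were modelled together in limma 3.58.1 under R 4.3.3, with a mean for each group and a variance trend (8 residual and 6.58 prior degrees of freedom). Genes entered where 2 to the power of the deposited value was at least 10 in 3 libraries. P-values were adjusted by Benjamini-Hochberg over the 14803 genes, with a threshold of 0.05. A difference is one of log2(normalized count + 1), so that of a low gene is understated. The fit was also run on simulated counts, for the age difference averaged over the fractions only. Changes were put into genes with reads in all 12 libraries, so sparse genes were not covered. The outcome is not given here, and no result above rests on it. Limma voom on the recovered reads was an alternative, and no other count tool was run, since the deposited unit is log2.

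Values in every library are given for the 4 receptors, for members called, and for the 2 members with the smallest p in each direction of the 6 comparisons without the difference of differences. The highest and lowest member of each role by age or sort may also be named. The members, the lists, the rule and the alternatives were chosen with earlier results of these data known. The promoter and overlap annotation (RefSeq GRCm38.p6, GENCODE M21) was matched by symbol or identifier only. A gene each was left out of the stem cell and pathway lists and is not reported here.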

Additional observations from a re-analysis of the deposited data

How the results depend on the processing

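Alternatives to the filter, the pseudocount, the scaling, the test, the library weights, the replicate block and the libraries used gave no reversed direction for the differences by which the naming rule picked a member. Other printed differences of members were not recomputed under all of them. The 2 members called for age on average became 1 (Ifi47) with no filter, with scaling to total reads and without the 2 least weighted libraries (young IL27RA- replicate 2 and old IL27RA- replicate 1), and 1 to 2 on leaving out 1 library. Within IL27RA- the 0 calls became 0 to 2 on leaving out 1 library, and the median of -0.09 became 0.058 without the 2 least weighted libraries. Within IL27RA+ the 0 calls became 1 (Ifi47) with library weights and without the 2 least weighted libraries, and 0 to 1 on leaving out 1 library. With total reads, the median age difference of all genes moved from 0.06 to -0.01. With the replicate block, Ly6e was at 0.58 (adjusted p = 0.0421) and Ifi47 at 0.84 (adjusted p = 0.0115), and the counts of calls did not move. Of 18 pairs of libraries with the same replicate number, 1 had deviations correlated above 0.1 (r from -0.05 to 0.11). Pairs of the fractions at the same age had r from 0.004 to 0.11. Pairs of different number were not compared, so these values cannot tell whether the numbers pair the libraries. Groups of 3 libraries and sparse genes limit the precision: Isg15, Ifit3, Oasl1, Trim21, Mx1 and Mx2 each had a library under 10 normalized counts.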
